A study of Mus musculus with 12 samples.

Results

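A stretch of mouse chromosome 3 that carries the long noncoding RNA genes Gm6135 and Gm26691 and the coding genes Cxxc4, Tet2 and Ppa2 was examined in liver RNA. These 5 genes span 952052 bases and make up 5 of the 34986 genes in the authors' table. Gm6135 and Gm26691 were chosen by their large difference in normalized counts between these same groups, so their levels are a description with no test. The 3 coding genes were chosen because they flank them. All 5 passed the filter on low values.

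RNA sequencing compared 6 livers of mice given valproic acid with obeticholic acid (VPA_OCA) and 6 livers of mice given valproic acid alone (VPA). All were female C57BL/6 mice aged 16 weeks, and no allele or transgene is named. Valproic acid is an antiepileptic drug that inhibits histone deacetylases and can injure the liver, and every animal received it. Obeticholic acid (OCA) is a semisynthetic bile acid and an agonist of the nuclear receptor FXR, whose part in the liver injury by valproic acid is the subject of the series. The sources used here give neither doses nor duration, and livers without valproic acid were not analysed here.

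Long noncoding RNAs are spliced, often polyadenylated transcripts without a recognised protein product. Some act on the genes beside them, and many are annotated only by a model name, as are both here. Of the coding neighbours, Cxxc4 (also called IDAX) binds CpG-rich DNA through a CXXC zinc finger and binds Dishevelled, by which it restrains Wnt signalling. Tet2 oxidises 5-methylcytosine in DNA and lost its own CXXC finger in evolution when Cxxc4 became a separate gene beside it. Ppa2 hydrolyses inorganic pyrophosphate in mitochondria.

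In the authors' table (GRCm38 coordinates) the members lie in the order Ppa2, Tet2, Gm6135, Gm26691, Cxxc4. Gm6135 (ENSMUSG00000106069, a long intergenic noncoding RNA) lies at chr3:133789515-133791504 on the minus strand, 244375 bases beyond the end of Tet2. GENCODE M21 gives it 1 transcript of 3 exons and 372 bases. Gm26691 (ENSMUSG00000097911, an antisense RNA) lies 39163 bases further on, at chr3:133830668-134240641, also on the minus strand. It spans 409974 bases and has 3 transcripts of 4401, 4183 and 479 bases, and the gene length behind its FPKM, 3021 bases, is their mean. Its row overlaps that of Cxxc4, on the plus strand, by 4158 bases. The overlap with Cxxc4 exons is confined to the first exons of Gm26691-201 (243 bases) and Gm26691-202 (96 bases), and Gm26691-203 has none. Reads from opposite strands cannot be told apart there unless counting used strand, and the sources used here do not say whether it did.

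**Figure D1:**
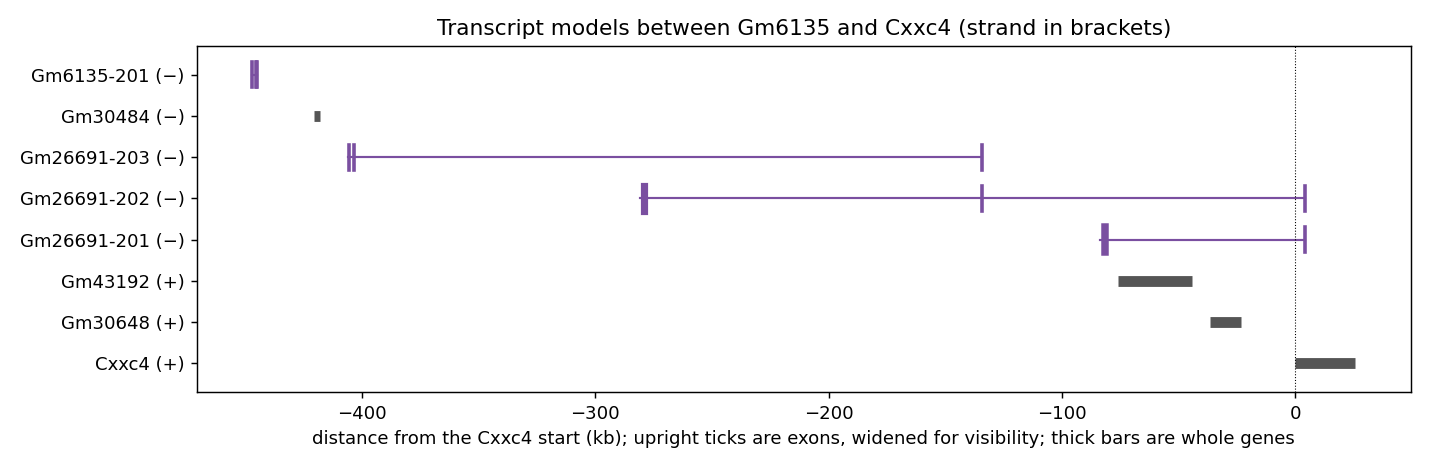
Transcript models between Gm6135 and Cxxc4 along chromosome 3, as distance from the Cxxc4 start in kilobases, with the strand in brackets. Lines with upright ticks are transcripts with their exons and thick bars are whole genes. Only the 2 longer Gm26691 transcripts reach Cxxc4, and the third, Gm26691-203, ends nearest to Gm6135.

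The exons of Gm6135 are shown because 1 stretch of them also occurs in Gm26691. They were read from GENCODE M21 transcripts on the minus strand of GRCm38, at chr3:133791313-133791504, chr3:133790810-133790953 and chr3:133789515-133789550. Capitals mark the run of 69 bases that is identical in Gm26691-203.
Gm6135 exon 1: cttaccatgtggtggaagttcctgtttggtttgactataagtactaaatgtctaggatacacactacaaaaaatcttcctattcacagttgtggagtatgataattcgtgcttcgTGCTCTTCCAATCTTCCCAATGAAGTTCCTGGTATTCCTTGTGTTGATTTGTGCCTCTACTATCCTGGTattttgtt
Gm6135 exon 2: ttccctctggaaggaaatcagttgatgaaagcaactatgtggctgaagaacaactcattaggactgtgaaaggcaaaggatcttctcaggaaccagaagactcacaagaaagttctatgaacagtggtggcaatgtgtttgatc
Gm6135 exon 3: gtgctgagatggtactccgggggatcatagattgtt

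The last 104 bases of exon 1 aligned without a gap to exon 2 of Gm26691-203, at chr3:133833134-133833237, with 98 identical bases (94.2%). A similar stretch lies in the first exon of Gm30484, a long noncoding RNA gene between both members on the same strand, at chr3:133818387-133818507. There 111 of 121 aligned bases were identical (91.7%), with a longest identical run of 27 bases. Capitals in the next 2 sequences mark the bases that differ from Gm6135, 6 in Gm26691 and 10 in Gm30484.
Gm26691 stretch: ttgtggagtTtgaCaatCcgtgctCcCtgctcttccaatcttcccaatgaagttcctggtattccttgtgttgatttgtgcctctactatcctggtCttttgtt
Gm30484 stretch: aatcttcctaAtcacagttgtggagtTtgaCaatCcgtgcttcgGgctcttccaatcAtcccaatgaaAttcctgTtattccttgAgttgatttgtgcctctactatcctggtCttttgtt

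Cut into words of 31 bases, Gm6135 had 342 different words, of which 39 (11.4%) also occur in Gm26691 and in no other GENCODE gene on the same strand. Conversely, 849 of the 8838 words of Gm26691 (9.61%) occur in 346 other genes. Gm30484 shared no word of that length with Gm6135. On the same strand the 3 coding members shared 0.437% or less of their words with other genes. On the opposite strand, which matters if counting ignored strand, other genes held 8.20% of the words of Gm26691, 1.69% of those of Cxxc4, 0.656% of those of Tet2 and none of those of Gm6135.

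RefSeq promoter windows (GRCm38.p6, 250 bases before to 50 after a gene's start) were at hand for 4 of the 5 members, and there was none for Gm6135. Those of Gm26691 and Cxxc4 are shown with their CpG dinucleotides in capitals, as the antisense RNA that was higher in VPA_OCA and the coding gene it overlaps. The start that RefSeq gives Gm26691, on the minus strand at chr3:134149237-134149536, lies within the GENCODE gene rather than at its end, and the Cxxc4 window lies on the plus strand at chr3:134236245-134236544.
Gm26691 promoter: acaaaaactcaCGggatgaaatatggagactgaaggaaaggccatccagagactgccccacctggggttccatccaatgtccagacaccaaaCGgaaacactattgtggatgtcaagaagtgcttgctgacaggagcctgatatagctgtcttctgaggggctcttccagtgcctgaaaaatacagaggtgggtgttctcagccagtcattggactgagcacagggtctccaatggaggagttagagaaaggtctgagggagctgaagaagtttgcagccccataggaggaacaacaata
Cxxc4 promoter: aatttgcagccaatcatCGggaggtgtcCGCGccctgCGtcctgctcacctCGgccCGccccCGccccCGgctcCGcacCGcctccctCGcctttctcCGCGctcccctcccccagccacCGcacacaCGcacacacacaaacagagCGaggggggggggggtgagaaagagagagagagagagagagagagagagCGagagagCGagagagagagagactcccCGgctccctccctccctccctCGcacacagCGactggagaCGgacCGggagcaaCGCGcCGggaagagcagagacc

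GENCODE starts Gm26691-201 at 134240641, Gm26691-202 at 134240494 and Gm26691-203 at 134102065. All lie outside the RefSeq window of Gm26691, and promoters at those starts were not examined. The Gm26691 window held 2 CpG dinucleotides, the Cxxc4 window 26, the Tet2 window 57 and the Ppa2 window 25. Across 32851 promoter windows the median was 7, and 23.3% of windows held 2 or fewer while 16.9% held 26 or more. The half-site AGGTCA of nuclear receptors was searched on both strands and was found in 16.3% of all windows and in none of the 4. The inverted repeat AGGTCANTGACCT, which holds that half-site on each strand, was found in 3 of all windows (0.00913%) and in none of the 4. At so low a share, the absence of the inverted repeat from 4 windows was all but fixed beforehand. Only these exact letters were searched, so they say nothing of binding at other letters within the windows or of binding outside them.

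Both noncoding RNAs were about 10-fold higher in VPA_OCA livers, and no VPA_OCA library overlapped a VPA library for either. This separation restates how the pair was chosen, and the share of all genes that separate the groups in this way is not given here. Gm6135 had normalized counts of 647, 1340, 757, 623, 578 and 519 in VPA_OCA replicates 1 to 6, against 91.3, 56.0, 56.6, 88.7, 52.0 and 70.6 in VPA replicates 1 to 6. The lowest VPA_OCA value was 5.68 times the highest VPA value, and VPA_OCA replicate 2 stood above the other 5. Gm6135 averaged 744 ± 303 in VPA_OCA and 69.2 ± 17.3 in VPA (SD, n = 6 each), a log2 fold change of 3.37 ± 0.21 (SE), or 10.3-fold. In bulk liver a change in the number of cells that make an RNA and a change in the RNA per cell cannot be told apart. Fold changes here compare log2 values after adding 1 to each normalized count, which makes those of low genes smaller than they are.

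Gm26691 had normalized counts of 73.8, 168, 91.7, 102, 63.3 and 75.0 in VPA_OCA replicates 1 to 6, against 6.87, 9.17, 6.15, 10.1, 5.80 and 9.73 in VPA replicates 1 to 6. Replicate 2 was again the highest VPA_OCA library, and the lowest VPA_OCA value was 6.28 times the highest VPA value. It averaged 95.6 ± 38.0 in VPA_OCA and 7.97 ± 1.91 in VPA (SD, n = 6 each), a log2 fold change of 3.38 ± 0.24 (SE), or 10.4-fold. Without VPA_OCA replicate 2 the VPA_OCA means were 624.7 ± 88.7 for Gm6135 and 81.1 ± 15.4 for Gm26691 (SD, n = 5), and the log2 fold changes were 3.18 and 3.20.

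**Figure D2:**
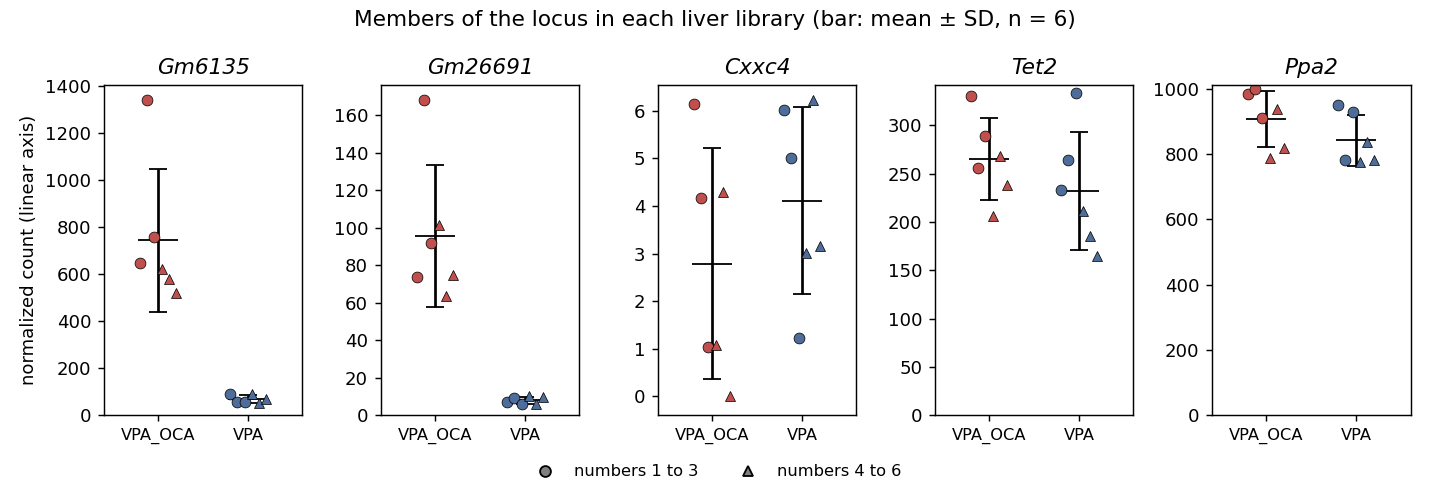
Normalized counts (linear axes) of the 5 members in each library, VPA_OCA left of VPA. Each point is 1 liver (circles for replicate numbers 1 to 3, triangles for 4 to 6) and bars give the mean ± SD of 6. The noncoding RNAs, chosen for this difference, separate the groups, with 1340 and 168 in VPA_OCA replicate 2 as their highest values. Cxxc4, Tet2 and Ppa2 overlap.

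Within the VPA_OCA group Gm6135 varied with a coefficient of variation of 40.7%, where counting error alone would give 3.54% at the estimated depth. In VPA these were 25.0% and 12.3%. For Gm26691 the observed variation was 39.8% in VPA_OCA and 24.0% in VPA, beside 9.94% and 36.2% from counting alone, so the differences among VPA libraries lay within counting error.

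Per length, Gm6135 was the more abundant at the gene lengths used. That of Gm26691, 3021 bases, is the mean of transcripts of 4401, 4183 and 479 bases. Which of them gave the reads was not tested, and its FPKM and place in the order below depend on that length. It reached 93.6 ± 36.2 FPKM in VPA_OCA and 8.68 ± 2.14 FPKM in VPA, beside 1.48 ± 0.56 and 0.124 ± 0.032 FPKM for Gm26691 (SD, n = 6 each). For scale, the FPKM of Ppa2 was 25.6 ± 2.43 in VPA_OCA and 23.6 ± 1.71 in VPA, that of Tet2 3.53 ± 0.61 and 3.07 ± 0.80, and that of Cxxc4 0.039 ± 0.034 and 0.057 ± 0.027. In the order of FPKM in VPA_OCA, Gm6135 came first, then Ppa2, Tet2, Gm26691 and Cxxc4, and no neighbours in that order overlapped between their lowest and highest libraries. In VPA the order was Ppa2, Gm6135, Tet2, Gm26691 and Cxxc4, and again no neighbours overlapped.

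The normalized count of Gm26691 was 13.0 ± 2.04% of that of Gm6135 in VPA_OCA (range 10.97% to 16.3%) and 11.9 ± 2.99% in VPA (7.53% to 16.4%; SD, n = 6 each). The share varied over 2-fold among VPA livers, and the ranges of the groups overlapped. Counting error alone would give Gm26691 a coefficient of variation of 36.2% in VPA. The spread of the share among VPA livers can therefore not be told from counting error. Both RNAs were chosen for a difference of about 10-fold, so similar mean shares restate that choice. Of the words of 31 bases in Gm6135, 11.4% also occur in Gm26691. How the authors' counting assigned reads from the shared stretch, and its part in the Gm26691 count, was not tested, since the values are given per gene and not per exon. Gm30484, which holds a like stretch but shares no word of that length, was listed at 0 in all 12 libraries. A count of 0 allows 3 reads, or a normalized count of 1.68 to 3.69 depending on the library, for counting error only.

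**Figure D3:**
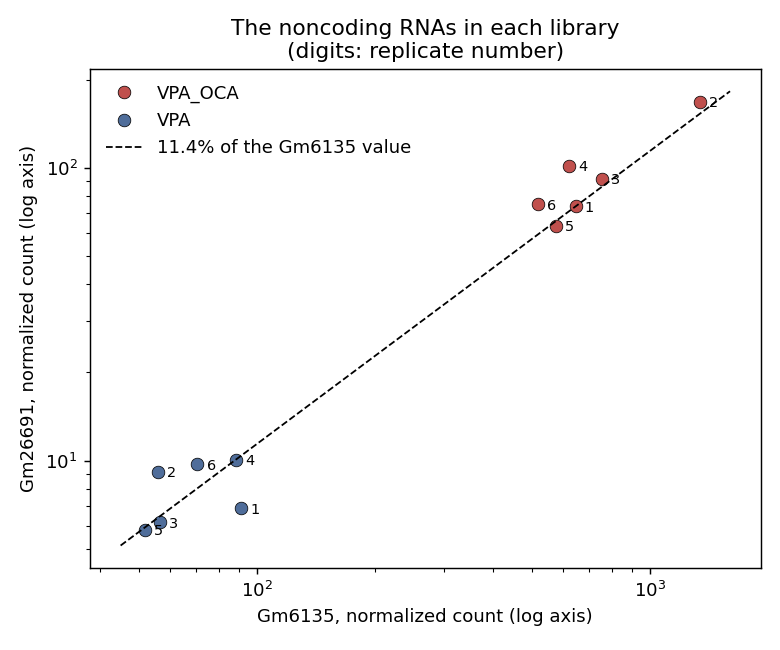
Gm26691 against Gm6135 as normalized counts on log axes, 1 point per library with its replicate number, VPA_OCA and VPA in different colours. The dashed line is 11.4% of the Gm6135 value, the share of Gm6135 words of 31 bases that also occur in Gm26691. The libraries of both groups lie on either side of it, between 7.53% and 16.4%.

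Whether the 2 noncoding RNAs covary among livers of 1 group was examined on log2 values with exact permutation tests over 720 pairings, 2-sided, in a family of 36 relations. Among the 6 VPA_OCA livers Pearson's r was 0.90 (exact permutation p = 0.033, adjusted 0.34) and Spearman's rho 0.60 (p = 0.24, adjusted 0.87). Without the libraries farthest from the median, VPA_OCA replicates 2 and 6, r was 0.53, and without replicate 2 alone 0.50, so the relation rests on that liver. Among the 6 VPA livers r was 0.43 (exact permutation p = 0.35, adjusted 0.85) and rho 0.54 (p = 0.30, adjusted 0.88), and r was 0.73 without the 2 farthest. Of the 36 relations 4 had an unadjusted p under 0.05, and none passed after Benjamini-Hochberg adjustment.

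No relation between a noncoding RNA and a coding member had an adjusted p under 0.05 in either group, by Pearson's or Spearman's test. The smallest unadjusted Pearson p among them was that of Gm26691 with Ppa2 in VPA (r = -0.77, exact permutation p = 0.10, adjusted 0.54). Each noncoding RNA was also set against 4 genes known to be regulated by FXR, namely the bile acid exporter subunit Slc51b, the repressor Nr0b2, the sterol hydroxylase Cyp8b1 and the bile salt export pump Abcb11. The strongest relation was that of Gm6135 with Abcb11 in VPA_OCA, at r = -0.94 (exact permutation p = 0.0028, adjusted 0.10) and rho = -0.94 (p = 0.017, adjusted 0.60), with r = -0.92 without the 2 farthest livers. Abcb11 was 11000, 10090 and 7570 normalized counts in VPA_OCA replicates 1, 3 and 2, below the 13500, 15330 and 14810 of replicates 4, 5 and 6. In VPA it likewise ran from 6251 to 6893 in replicates 1 to 3 and from 10150 to 12590 in replicates 4 to 6. In VPA the same relation had r = 0.31 (exact permutation p = 0.50, adjusted 0.94). A single set of 3 livers is too small for a relation of its own, so log2 values were also centred on the means of both sets, a step chosen after the data were seen. Centred in this way, r of Gm6135 with Abcb11 was -0.97 in VPA_OCA (exact permutation p = 0.056 over 36 pairings within sets, adjusted 0.074) and 0.95 in VPA (exact permutation p = 0.028, adjusted 0.056). Before centring, r of Gm26691 with Abcb11 in VPA_OCA was -0.82 (exact permutation p = 0.038, adjusted 0.34), and -0.07 without the 2 farthest livers. Centred, that of Gm26691 with Abcb11 was -0.98 in VPA_OCA (exact permutation p = 0.028, adjusted 0.056) and 0.60 in VPA (p = 0.39, adjusted 0.39). None of these 4 centred relations passed after adjustment over them, the smallest p that the pairings allow being 0.028, and the difference in sign between the groups was not tested. Abcb11 gave the strongest of the 36 relations in these same livers, and the adjustment over 4 does not account for its choice from them.

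None of the 3 flanking coding genes differed between the groups by limma, and none had an unadjusted p under 0.05. Cxxc4 had normalized counts of 6.16, 4.17, 1.05, 1.08, 4.29 and 0 in VPA_OCA replicates 1 to 6, against 6.02, 5.003, 1.23, 3.02, 6.24 and 3.16 in VPA replicates 1 to 6. The groups overlapped over nearly their whole range, at the level of a few reads. Its log2 fold change was -0.63 (95% interval -1.65 to 0.39, limma adjusted p = 0.76), or a fold between 0.32 and 1.31 after adding 1 to each count. With 0.1 added it was -1.23 and with 5 added -0.26, so at this depth the interval does not bound the fold of Cxxc4 itself. The opposite direction to Gm26691, which overlaps it, lay within the error of Cxxc4.

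Tet2 had normalized counts of 330, 256, 289, 207, 268 and 239 in VPA_OCA replicates 1 to 6, against 233, 264, 333, 212, 186 and 164 in VPA replicates 1 to 6. The highest single value was a VPA liver and the groups overlapped. The log2 fold change was 0.21 (95% interval -0.13 to 0.56, limma adjusted p = 0.76). Ppa2 was the steadiest member, with 984, 999.6, 910.3, 789, 937 and 819 in VPA_OCA replicates 1 to 6, against 949, 780.1, 928, 776, 836 and 783 in VPA replicates 1 to 6. Its log2 fold change was 0.11 (95% interval -0.09 to 0.30, limma adjusted p = 0.80), within the spread of either group. In the authors' deposited table the adjusted p was 0.33 for Tet2 and 0.54 for Ppa2.

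Among all genes tested, 137 of 19006 passed limma's threshold of an adjusted p under 0.05 (0.721%), 84 of them higher in VPA_OCA (0.442%) and 53 lower (0.279%). With a block for the replicate number 210 passed (1.10%), 129 higher and 81 lower. Against this background, the 1000000 bases on each side of the 5 members held 28 genes besides the noncoding pair, the 3 coding members included, of which 15 were tested. The only one called was Gimd1, at 68.3 ± 5.48 in VPA_OCA and 43.2 ± 5.54 in VPA (SD, n = 6 each), higher by 0.65 ± 0.13 on the log2 scale (SE, limma adjusted p = 0.036). Gimd1 ran from 61.7 to 76.2 in VPA_OCA and from 35.8 to 50.4 in VPA. The call was lost with the replicate block (limma adjusted p = 0.067) and in 11 of the 12 fits without 1 library, where the adjusted p lay between 0.033 and 0.10. The log2 fold change stayed at 0.65 with the block and between 0.60 and 0.70 without 1 library, and in the authors' deposited table the adjusted p of Gimd1 was 0.0084. None was called lower, and 1, the matrix protein gene Npnt, had an unadjusted p under 0.05 in that direction (6.67%, beside 4.25% of all genes tested). Npnt was at the level of a few reads, with 2.73 ± 1.47 in VPA_OCA and 6.32 ± 2.92 in VPA (SD, n = 6 each).

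The median log2 fold change of these 15 genes was 0.10, beside -0.0005 over all genes tested. Within 500000 bases 10 genes were tested and limma called none, with 1 lower at an unadjusted p under 0.05 (10%, beside 4.25% of all genes tested). At that unadjusted p, 4 genes were higher within 2000000 bases (12.1%, beside 5.3% of all genes tested) and 1 lower (3.03%). Within 2000000 bases 33 were tested and 2 called, Gimd1 and Bdh2, a short-chain dehydrogenase that acts on hydroxybutyrate. Bdh2 was 349 ± 39.8 in VPA_OCA and 214 ± 36.4 in VPA (SD, n = 6 each), higher by 0.72 ± 0.13 on the log2 scale (SE, limma adjusted p = 0.012), and it passed in 12 of 12 fits without 1 library.

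The other neighbours with a mean normalized count of at least 10 did not pass the test. They were Aimp1, a scaffold of the tRNA synthetase complex, Tbck, Gstcd, the Integrator subunit Ints12 and the long noncoding RNA Gm43254, with log2 fold changes between -0.08 for Aimp1 and 0.31 for Gstcd. Of the noncoding genes on the plus strand within the span of Gm26691, Gm43192 was listed at 0 in every library and Gm30648 had 3.93 ± 1.97 in VPA_OCA and 4.03 ± 1.43 in VPA (SD, n = 6 each). Of the 30 genes in the window, members included, 8 were listed at 0 in every library.

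**Figure D4:**
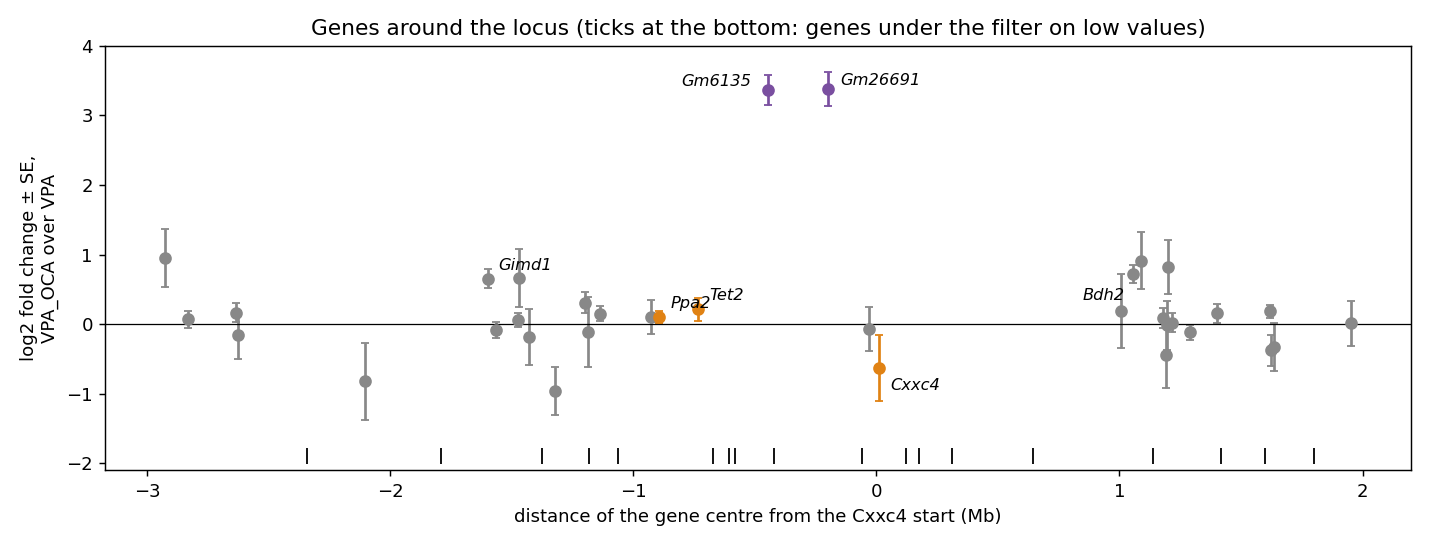
Log2 fold change (VPA_OCA over VPA, ± SE) of each tested gene against the distance of its centre from the Cxxc4 start in megabases, with the noncoding pair in purple and the coding members in orange. Ticks at the bottom are genes under the filter on low values. Gm6135 and Gm26691 lie at 3.37 and 3.38, and every other tested gene lies between -0.97 and 0.95.

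Earlier results of these data showed that libraries differ by replicate number, 1 to 3 against 4 to 6. The labels name no batch, so these 2 sets are not a recorded factor of the design. That the pair was high in VPA_OCA in both sets follows from the groups not overlapping. In numbers 1 to 3 alone the log2 fold change of Gm6135 was 3.70 ± 0.27 (SE), with 915 ± 372 in VPA_OCA and 68.0 ± 20.18 in VPA (SD, n = 3 each). In numbers 4 to 6 alone it was 3.04 ± 0.18, with 573 ± 52.4 in VPA_OCA and 70.4 ± 18.4 in VPA. Gm26691 gave 3.67 ± 0.33 and 3.09 ± 0.31 in the same sets. The interaction of group and set, which did not choose the members, was -0.66 for Gm6135 (limma adjusted p = 0.66) and -0.57 for Gm26691 (adjusted p = 0.76). It passed for none of the 5 members, none with an unadjusted p under 0.05, and for 2 of 19006 genes (0.0105%). Cxxc4 had -0.10 in numbers 1 to 3 and -1.15 in numbers 4 to 6, Tet2 0.08 and 0.34, and Ppa2 0.13 and 0.08.

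**Figure D5:**
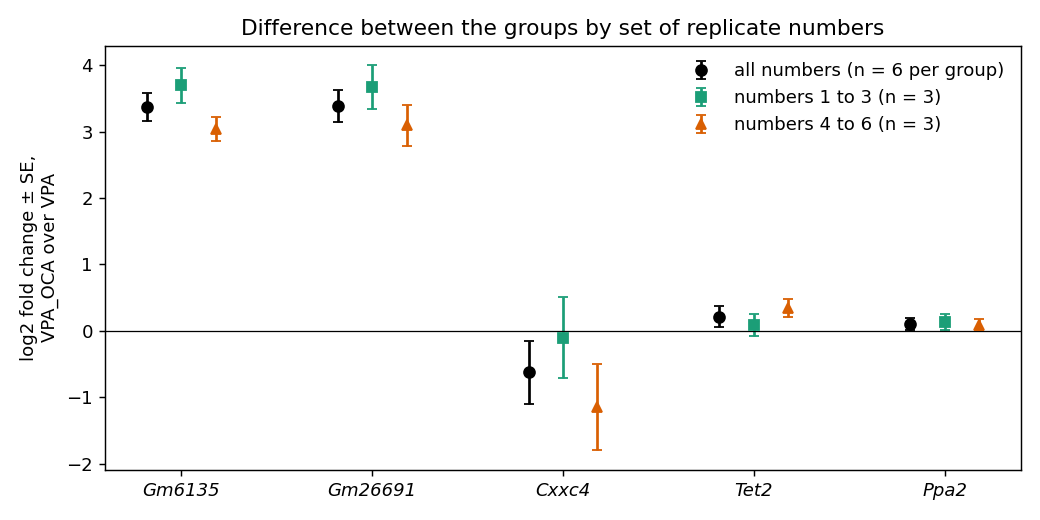
Log2 fold change (VPA_OCA over VPA, ± SE) of each member in all libraries (n = 6 per group) and in replicate numbers 1 to 3 and 4 to 6 alone (n = 3 per group). Gm6135 and Gm26691 lie between 3.04 and 3.70 in every set, and the coding members lie between -1.15, for Cxxc4 in numbers 4 to 6, and 0.34.

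Genes that work with the coding members were read from lists of their pathways, with levels given as mean normalized counts ± SD (n = 6 each). Of 12 CXXC domain proteins limma called none, and none had an unadjusted p under 0.05. The smallest p belonged to Mbd1, a methyl-CpG reader (640 ± 62.3 in VPA_OCA and 757 ± 141 in VPA), followed by Fbxl19 (65.9 ± 7.87 and 77.6 ± 11.5) and Cxxc4. Their median log2 fold change was -0.03.

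Of 22 genes of DNA methylation and its oxidation by TET enzymes, limma again called none, with none at an unadjusted p under 0.05 and a median of -0.05. Tet3, the other TET enzyme with a clear level in these livers, had 320 ± 84.7 in VPA_OCA and 367 ± 76.3 in VPA, while Tet1 had 2.35 ± 1.34 and 2.34 ± 1.17. The smallest p values were those of Idh2, which makes the TET cofactor 2-oxoglutarate in mitochondria (2312 ± 289 in VPA_OCA and 2685 ± 302 in VPA), and of the stress-induced Gadd45g (308 ± 248 and 142 ± 92.6) and Gadd45b (37.5 ± 19.5 and 67.4 ± 34.9).

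Of 23 genes of Dishevelled and Wnt signalling, in which Cxxc4 acts, limma called none, 3 were lower at an unadjusted p under 0.05 (13.0%, beside 4.25% of all genes tested), and the median was -0.02. These 3 were the Wnt co-receptor Lrp6 (946 ± 132 in VPA_OCA and 1181 ± 67.2 in VPA, limma adjusted p = 0.20), the ubiquitin ligase Znrf3, which removes Wnt receptors (156 ± 18.9 and 195 ± 22.7, adjusted p = 0.33), and the kinase Gsk3b (349 ± 51.4 and 414 ± 33.3, adjusted p = 0.47). Of 6 measured genes of inorganic pyrophosphate limma called 1 lower (16.7%, beside 0.279% of all genes tested), and 1 gene says little of the list. This was the phosphatase Lhpp, at 994 ± 176 in VPA_OCA against 1887 ± 244 in VPA (SD, n = 6 each; log2 fold change -0.93 ± 0.12 (SE), limma adjusted p = 0.0015). Ppa1, the cytosolic counterpart of Ppa2, had 2503 ± 473 in VPA_OCA and 2419 ± 173 in VPA, and Enpp1, which makes extracellular pyrophosphate, 722 ± 124 and 757 ± 99.8. The median of these 6 was 0.03.

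The genes whose pattern over the 12 libraries was most like that of the pair were named by Pearson's r of log2 values among 13430 genes. These libraries share the 2 groups, and any gene with a large group difference scores high, so r describes the group difference first. Gm6135 and Gm26691 had r = 0.99 with each other, and no other gene scored higher with either. Those most like Gm6135 were the water channel Aqp4 (r = 0.96), the DNA end-joining factor Paxx, the prostaglandin D synthase Ptgds, the glutathione transferase Gsta4 and the D-glutamate cyclase Dglucy (r = 0.94). Those most like Gm26691 were Ptgds (r = 0.96), Paxx, Aqp4, Dglucy and the steroid reductase Srd5a2 (r = 0.94). None of these lies on chromosome 3.

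With group means taken out, r between the pair was 0.75, and 88 genes scored higher with Gm6135 and 25 with Gm26691. With the means of group and set taken out it was 0.71, and 358 and 191 genes scored higher. By Spearman's rho over the 12 libraries the pair had 0.90, with 13 genes higher for Gm6135 and none for Gm26691. After taking out the means, the genes most like Gm6135 were the noncoding RNA Gm43573, elsewhere on chromosome 3 (r = 0.90), the lipid droplet protein gene Plin5 (0.87), Rgs5, Tmem9 and Cinp, and those most like Gm26691 were Mpzl3 (0.86), the apolipoprotein gene Apoa5, Plin5 (0.83), Mitf and Psmd9. These correlations rest on the spread of 12 livers, in which VPA_OCA replicate 2 stands apart for both RNAs.

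Normalized counts summed to between 20236900 and 22087711 per library, at estimated depths of 17879222 to 37766890 reads. Of 2511 long noncoding RNA genes tested, the chosen pair among them, 8 were called higher and 3 lower (0.438%, beside 0.721% of all genes tested). Hepatocyte markers were abundant throughout, summing to at least 2100000 in VPA_OCA and 2363000 in VPA. Of 52 tested markers of 12 cell types limma called none, with 1 higher (Cela2a) and 1 lower (Lyve1) at an unadjusted p under 0.05 (3.85%, beside 9.55% of all genes tested). The summed level of the 5 skeletal muscle markers was at most 6.44 in VPA_OCA and in VPA 509.9 in replicate 4, 95.6 in replicate 5 and at most 2 in the others. Without VPA replicates 4 and 5 the log2 fold change was 3.37 for both Gm6135 and Gm26691. Of the markers of neurons, in which Cxxc4 is known to be expressed, Snap25, Tubb3 and Tacr3 averaged at most 0.90 in VPA_OCA and 1.05 in VPA, while Syt1 averaged 222 ± 41.2 in VPA_OCA and 191 ± 26.3 in VPA (SD, n = 6 each).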

How the data were processed

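RNA-seq of 12 flash-frozen livers was read from 1 table. Per the labels' protocols, Trizol was used for extraction and a TruSeq RNA kit for the libraries. The submitters' processing notes name edgeR and GRCm38.p5, and the sources used here do not give the aligner, annotation or use of strand. Values deposited by the authors are a normalized count per gene (a signal scaled by 1 factor per library) and FPKM, with p-values and adjusted p-values, per the file headers. Numbers written with both a comma and an exponent stood 1000 times too high and were divided by that factor (89 normalized counts, 129 FPKM values, 238 p-values, 88 adjusted p-values), after which adjusted p-values recomputed over the 12517 genes marked present by the authors lay within 0.54% of the deposited ones. For 26 symbols stored as dates the gene ID gave the name. Of the low values, 79.8% to 84.8% lay within 0.1 of a whole multiple of 1 read, too few to recover reads, so no count model was used and edgeR and DESeq2 fits, planned for recovered reads, were not run.

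The 19006 genes that reached a normalized count of 1 in 6 or more libraries were compared on log2(normalized count + 1) with limma 3.58.1 in R 4.3.3 (intensity trend, group as the only term, Benjamini-Hochberg adjustment, threshold 0.05), checked on simulated data. Replicate numbers come from the sample titles. Same-numbered libraries deviated together in all 6 pairs (r from 0.15 to 0.48 over 11481 genes), which met the limit of 0.1 set for pairing, so the blocked fit is given where it changes a call or a count. In 2 of the 6 pairs the VPA_OCA library matched its own number best, and same-numbered libraries also share a set (1 to 3 or 4 to 6), whose part in r was not tested. The members and gene lists were chosen with earlier results of these data known. Genes named are the members, neighbours within 1000000 bases that passed or averaged at least 10, the 5 most like each noncoding RNA by either measure, list members that passed with up to 3 others by p, and 4 FXR-regulated genes. Further list members and Bdh2, Npnt, Cela2a and Lyve1 were named after their values were seen. Sequences were compared with GENCODE M21 transcripts, in which 34826 of the gene IDs were found, and promoters came from RefSeq. Alternatives were other filters, scalings, pseudocounts of 0.1 and 5, limma with array weights or with no trend, FPKM, a replicate block, a term for the set of numbers, each set alone, windows of 500000 and 2000000 bases and each library left out. Added after the data were seen were leaving out VPA replicates 4 and 5 together and the relations with Abcb11 centred on set means. Python 3.11.15 with scipy 1.17.1 and matplotlib 3.10.9 was used. Intervals and limits cover counting error or the spread among these livers only.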

Additional observations from a re-analysis of the deposited data

Results flagged for a closer look

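In VPA_OCA replicate 2 the level of Gm6135, 1340 normalized counts, stood far above the other 5 VPA_OCA livers, which ran from 519 to 757. The gap to the nearest was 0.71 of the group's whole range, over Dixon's critical value of 0.625 for 6 libraries. The same liver had the highest level of Gm26691, 168 normalized counts beside 63.3 to 102 in the others, with a gap of 0.63 of the range. The estimated depth of that library, 21130528 reads, lay within the range of the others. The rule was applied to untransformed values and not to log2 values, on which a high value stands out less. These were the 2 values singled out among 16 groups of values looked at. Chance alone singles out about 1 in 20 groups if values are normally distributed.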

How the results depend on the processing

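Over 27 alternatives the log2 fold change of Gm6135 ran from 3.04 to 3.70 and that of Gm26691 from 2.77 to 3.67. Their sign could hardly change, since the groups did not overlap for a pair chosen for this difference. The log2 fold changes of Cxxc4, Tet2 and Ppa2 kept their sign without passing in any (26 for Cxxc4, which a mean of at least 10 removes). The 84 genes higher became 129 with the replicate block, 254 with a term for the set of numbers and 63 to 97 with 1 library left out. The 53 lower became 81, 150 and 28 to 49 in those fits (28 to 33 when the library left out was VPA 2, 3, 6 or VPA_OCA 1, 3, 5, 6), 26 in limma without trend and 29 in numbers 4 to 6 alone, and with and without the block 128 calls were shared. The 1 neighbour called became 0 with no filter on low values, with the replicate block, in either set of numbers alone, without VPA replicates 4 and 5 together and within 500000 bases, 2 within 2000000 bases, and 0 to 1 with 1 library left out. The 2 genes called for the interaction of group and set became 1 with no filter and without VPA replicates 4 and 5, 0 with a pseudocount of 5, without trend and on FPKM, 14 with array weights and 1 to 4 with 1 library left out. The correlation of the pair in VPA_OCA, 0.90, was 0.53 without the 2 libraries farthest from the median and 0.50 to 0.96 with 1 left out, the lowest without replicate 2. In VPA, 0.43 became 0.19 to 0.76 with 1 left out. The cause of these moves was not tested. Reads of a few per library limit Cxxc4, and Gm26691 in VPA.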
